A study of Homo sapiens with 6 samples.

Results

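The genes described here act in DNA repair and in the checkpoints that halt the cell cycle after DNA damage. They were a list of 34 gene symbols, and each was read from the array probe set that the platform annotation assigns to that symbol and no other. Of these, 31 were measured, out of 18417 genes in all, and each of the 31 had 1 such probe set. BRCA2, FANCA and FANCD2 were not analysed here. The 31 comprised 12 genes of homologous recombination, 6 of the Fanconi anaemia pathway, 7 of break sensing and checkpoint signalling, 4 of mismatch repair, base excision repair and poly(ADP-ribose) synthesis, and the pair RAD18 and POLQ.

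The cells were MCF10A, a human mammary epithelial cell line that does not form tumours, in a version whose sample names carry erbb2. ERBB2 is a receptor tyrosine kinase, and both groups share it. The 3 RB-deficient arrays carry the tag miRB in their titles and the 3 RB-proficient arrays the tag miNS. Neither tag is spelled out, and how RB was lowered, by which vector and in how many clones is not given in the sources used here. All cells grew for 7 days inside a gel of basement membrane proteins, in 3-D, and the gel was lysed together with them, so each array averages a whole culture. The labels do not say that replicates were separate cultures, so the p-values cover no more than the spread among these samples, part or all of which may be technical.

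RB, the product of RB1, binds E2F transcription factors and holds back genes needed for S phase. Many repair genes are among those genes, because recombination and crosslink repair work mainly on replicated DNA. Cells that lack RB function are known for raised levels of such genes and for replication stress. When a break forms, the MRN complex and the kinases ATM and ATR detect it, CHEK1 and CHEK2 carry the signal to the cell cycle, and BRCA1 with its partners prepares the break for exchange with the sister chromatid. The comparison asks whether the levels of these genes differed with the RB label.

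No repair or checkpoint gene passed the test between RB-deficient and RB-proficient cells. Values are log2 intensities, with arrays set to the same median and a floor of 1 on the linear scale that is 0 on the log2 scale, and each difference is RB-deficient minus RB-proficient. In limma's test 0 of 31 genes had an adjusted p under 0.05, with a smallest adjusted p of 0.213, and 0.00543% of all genes did, which is 1 gene, fibronectin FN1, outside the list. At an unadjusted p under 0.05, 6 of the 31 were lower in RB-deficient cells (19.4%, against 10.8% of all genes) and 1 was higher (3.23%, against 2.85%). The 3 values of each group lay apart for 5 genes that were lower (16.1%, against 15.3% of all genes) and for 1 that was higher (3.23%, against 7.12%). CHEK2, PMS2, FANCG, TP53BP1 and ATR were the 5 and XRCC2 the 1. Both shares were near or under those of the whole array. Under quantile normalization, centring or no scaling, CHEK2, FANCG and TP53BP1 were apart and lower, and XRCC2 and RAD50 apart and higher. With 1 array left out, the lower genes at an unadjusted p under 0.05 numbered from 2 to 10. They were 2 without RB-deficient 2 (9.39% of all genes) or RB-proficient 3 (5.34% of all genes), and 10 without RB-deficient 3 (15.8% of all genes). The lower genes apart were 12 of 31 without RB-deficient 3 (38.7%, against 26.3% of all genes). They were 9 of 31 without RB-proficient 2 (against 20.5% of all genes) and 8 of 31 without RB-proficient 1 (against 19.6%). The share over the array was larger there than with all arrays, and the share of the 31 lay above it. The higher genes apart were 3 without RB-deficient 2, 3 without RB-deficient 3 and 2 without RB-deficient 1, where 12.6%, 15.5% and 12.1% of all genes were apart and higher. In all, 21 of 31 differences were below 0 (67.7%, against 58.6% of all genes), and their median was −0.31, against −0.21 over all genes. These medians were −0.21 and −0.09 after quantile normalization and −0.18 and −0.08 after centring. Without the array RB-deficient 2 the median of the 31 was 0.05, above the −0.16 over all genes, and 15 of the 31 were lower. A lower level per culture can mean fewer cells that express a gene or less RNA per cell, and these cannot be told apart here.

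The precision was low. Standard errors ran from 0.48 to 1.19 with a median of 0.63, and the median width of a 95% interval was 2.81 on the log2 scale. The interval spanned 0 for 24 genes and lay inside −1 to 1 for 0 genes, so no difference was bounded within that range. Of the 31, CHEK2, FANCM, BRCA1 and POLQ were each at the floor in 1 array. All 4 such values were in the arrays RB-deficient 1 and 2.

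**Figure D1:**
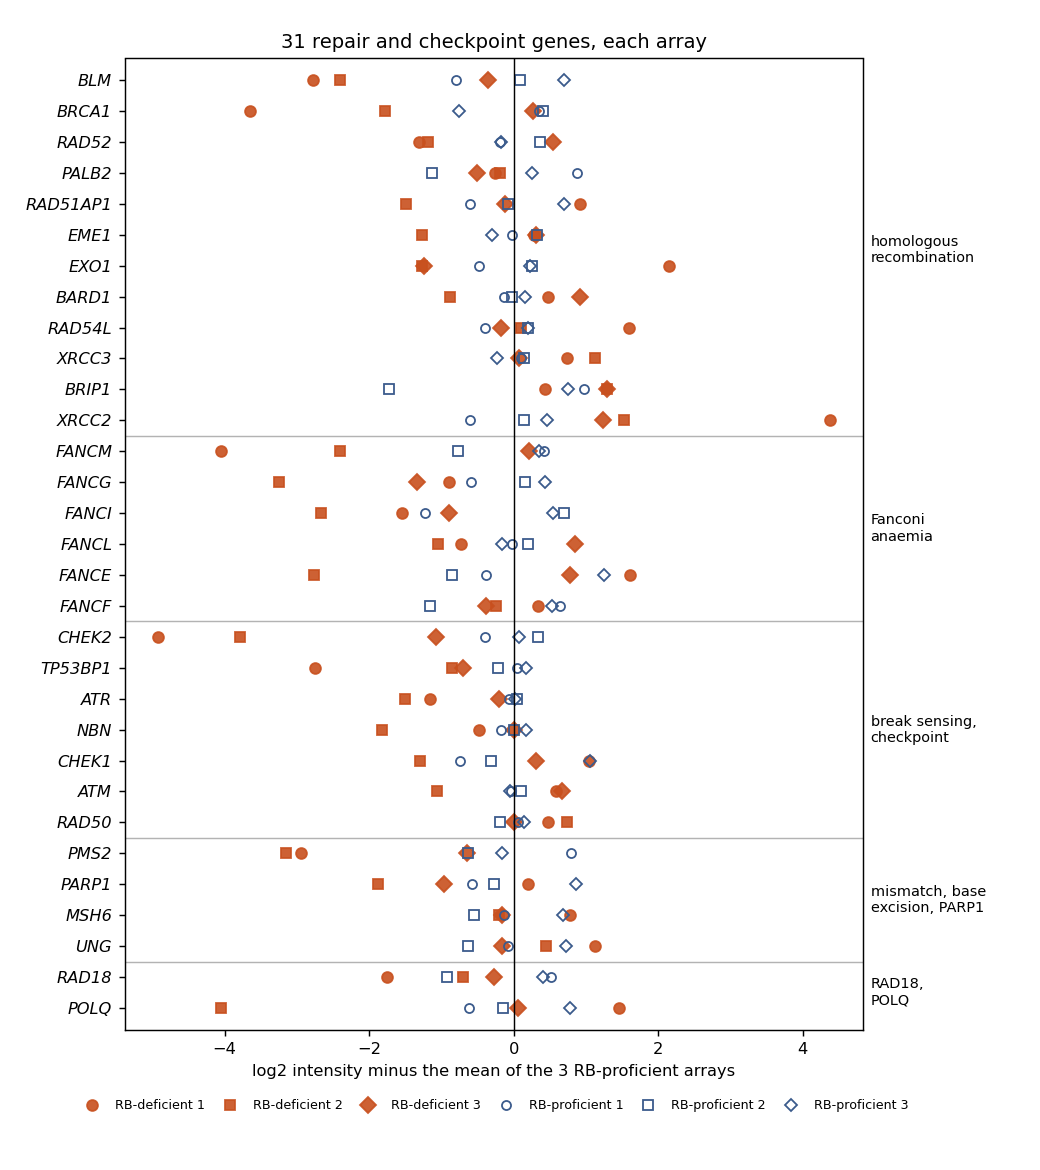
Log2 intensity of each of the 31 genes in each array, minus the mean of the 3 RB-proficient arrays, with genes down the page by role. Filled symbols are RB-deficient arrays and open symbols RB-proficient arrays. RB-deficient 1 and 2 lie farthest from 0, from 4.37 above for XRCC2 to 4.92 below for CHEK2 (both in RB-deficient 1), and RB-deficient 3 lies closer to the RB-proficient values.

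RB1 itself, read outside the repair list, averaged 4.86 ± 1.31 in RB-deficient arrays and 6.81 ± 0.95 in RB-proficient arrays (SD, n = 3 each). RB1 differed by −1.95 (SE 0.76, adjusted p 0.302) and its groups overlapped, so RB-deficient below means labelled so. The arrays RB-deficient 1 and 2 correlated with the RB-proficient arrays at Pearson's r of 0.68 to 0.75 across genes, and RB-deficient 3 at 0.83 to 0.88. The share of genes at the floor was 4.71%, 1.62% and 0.684% in RB-deficient 1, 2 and 3 and at most 0.684% in the RB-proficient arrays. A list of epithelial markers held basal keratins such as KRT5 and KRT14 and the general epithelial gene CDH1. All 7 measured of them had lower means in RB-deficient cells, with summed linear levels of 641 to 1401 in RB-deficient arrays and 2115 to 4555 in RB-proficient arrays. The reference gene ACTB differed by −1.92 and GAPDH by −1.23, and both lay apart between the groups. Markers of other cell types were summed in the same way. Those of fibroblasts (8 of 8 measured) came to 160 to 293 in RB-deficient arrays and 169 to 225 in RB-proficient arrays. Those of endothelium (6 of 6) came to 348 to 408 in RB-deficient arrays and 495 to 619 in RB-proficient arrays. Those of leukocytes (7 of 8) came to 276 to 290 in RB-deficient arrays and 366 to 487 in RB-proficient arrays. A sum follows its brightest genes, and single markers went both ways. Of fibroblast markers 4 were lower and 4 higher in RB-deficient cells, of endothelium 3 and 3, and of leukocytes 3 and 4. The median differences were −0.24, −0.18 and 0.03. No marker of these 3 cell types was at the floor in all 6 arrays. The part of all these values in the results below was not tested.

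Promoter windows of some of these genes hold E2F letters. RefSeq promoter windows on GRCh38.p14, from 250 bases before to 50 bases after a start site, were given for 29 of the 31 measured genes, some with several windows. They were searched on both strands for the E2F letters TTTCCCGC, TTTCGCGC, TTTGCCGC and TTTGGCGC. A match stood in a window of 5 of the 29 genes (17.2%), namely EXO1, MSH6, PMS2, UNG and XRCC2, and in windows of 3.99% of 27305 genes in all. The CHR letters TTTGAA, found in promoters of many mitotic genes, stood in windows of 4 of the 29 (13.8%), against 18.2% of all genes. 1 window with E2F letters is shown for each of the 5 genes (PMS2 had a second, overlapping one) because the differences of their genes run from −2.25 to 2.37, and the window of CHEK2, with no such letters, because CHEK2 had the lowest difference. Capitals mark the E2F letters, or their reverse complement in XRCC2.
XRCC2, chr7:152676092-152676391, minus strand: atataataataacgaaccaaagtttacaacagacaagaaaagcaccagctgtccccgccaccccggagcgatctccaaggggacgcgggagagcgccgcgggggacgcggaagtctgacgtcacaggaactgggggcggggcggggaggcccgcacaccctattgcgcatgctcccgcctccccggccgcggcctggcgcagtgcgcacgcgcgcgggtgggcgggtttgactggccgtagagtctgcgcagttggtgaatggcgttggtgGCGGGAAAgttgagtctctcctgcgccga
UNG, chr12:109097922-109098221, plus strand: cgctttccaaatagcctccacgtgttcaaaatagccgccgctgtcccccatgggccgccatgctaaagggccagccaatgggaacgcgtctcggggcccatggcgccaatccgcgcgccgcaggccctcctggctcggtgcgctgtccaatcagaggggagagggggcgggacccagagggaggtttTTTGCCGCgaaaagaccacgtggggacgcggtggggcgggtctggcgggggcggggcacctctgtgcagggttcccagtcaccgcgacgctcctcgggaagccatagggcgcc
MSH6, chr2:47782895-47783194, plus strand: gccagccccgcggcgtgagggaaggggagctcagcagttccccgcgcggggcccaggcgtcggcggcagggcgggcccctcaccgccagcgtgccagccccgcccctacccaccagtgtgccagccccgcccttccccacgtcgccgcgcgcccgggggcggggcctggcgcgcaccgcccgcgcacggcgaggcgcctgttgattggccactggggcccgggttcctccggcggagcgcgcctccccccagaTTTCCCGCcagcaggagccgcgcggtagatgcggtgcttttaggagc
EXO1, chr1:241847954-241848253, plus strand: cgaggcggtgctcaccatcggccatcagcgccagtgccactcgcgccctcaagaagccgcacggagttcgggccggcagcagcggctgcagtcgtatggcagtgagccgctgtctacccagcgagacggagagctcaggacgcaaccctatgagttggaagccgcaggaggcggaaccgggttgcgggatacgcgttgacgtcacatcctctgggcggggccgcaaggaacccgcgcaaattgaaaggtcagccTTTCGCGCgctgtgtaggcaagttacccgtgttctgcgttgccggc
PMS2, chr7:6009057-6009356, minus strand: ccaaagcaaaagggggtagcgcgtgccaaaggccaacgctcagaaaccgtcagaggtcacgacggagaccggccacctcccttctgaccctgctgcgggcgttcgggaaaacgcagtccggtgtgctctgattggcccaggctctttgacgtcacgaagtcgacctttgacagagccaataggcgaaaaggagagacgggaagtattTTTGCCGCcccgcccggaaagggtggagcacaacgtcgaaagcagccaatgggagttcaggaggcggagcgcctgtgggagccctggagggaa
CHEK2, chr22:28741771-28742070, minus strand: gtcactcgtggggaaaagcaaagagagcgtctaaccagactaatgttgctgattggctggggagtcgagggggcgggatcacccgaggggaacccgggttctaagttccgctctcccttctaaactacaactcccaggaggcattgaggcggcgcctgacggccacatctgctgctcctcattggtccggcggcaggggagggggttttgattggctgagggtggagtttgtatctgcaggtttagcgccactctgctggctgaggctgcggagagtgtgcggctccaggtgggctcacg

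In XRCC2 the letters lay 22 bases after the start site, in EXO1 5 bases and in MSH6 4 bases after it. In UNG they lay 63 bases before the start site and in the printed window of PMS2 43 bases before it. The 5 genes did not share a direction: their differences were 2.37 for XRCC2, 0.47 for UNG, 0.14 for MSH6, −0.12 for EXO1 and −2.25 for PMS2, with a median of 0.14. The 24 genes without the letters had a median of −0.32, and 17 of them were lower. These matches describe letters only.

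Break sensing and checkpoint kinases held the largest single difference. Of the 7 genes of this role, 3 were apart and lower (42.9%, against 15.3% of all genes) and 0 apart and higher (against 7.12%). CHEK2, the kinase that ATM activates after double-strand breaks, had 0, 1.13 and 3.84 in RB-deficient arrays 1, 2 and 3, against 4.52, 5.25 and 4.99 in RB-proficient arrays 1, 2 and 3. Every RB-deficient value lay below every RB-proficient one, and RB-deficient 1 was at the floor. The difference was −3.26 (SE 0.88, 95% interval −5.23 to −1.29), which is 9.60-fold lower, with an adjusted p of 0.213. The size depended on the floor and on those arrays: it was −0.92 with a floor of 16, −1.17 with an offset of 16, and −1.08 without RB-deficient 1 and 2 together. Sequences closely related to CHEK2 occur elsewhere in the human genome, and what they add to the signal was not tested.

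TP53BP1, which binds chromatin near breaks and favours end joining, had 3.73, 5.63 and 5.78 in RB-deficient arrays and 6.53, 6.26 and 6.66 in RB-proficient arrays. The groups were apart, with RB-deficient 1 far below the other 5 arrays, and the difference was −1.44 (SE 0.63, adjusted p 0.358). Without RB-deficient 1 it was −0.78 and without RB-deficient 1 and 2 −0.70. ATR, the kinase that responds to stalled forks, had 6.62, 6.26 and 7.57 in RB-deficient arrays and 7.71, 7.82 and 7.79 in RB-proficient arrays. Its groups were apart too, though RB-deficient 3 lay close to the lowest RB-proficient value. The ATR difference was −0.96 (SE 0.52, interval −2.12 to 0.21, adjusted p 0.447), or −0.20 without RB-deficient 1 and 2.

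CHEK1, the kinase downstream of ATR, had 8.94, 6.60 and 8.20 in RB-deficient arrays and 7.16, 7.59 and 8.95 in RB-proficient arrays. Its groups overlapped almost completely, and the difference was 0.01 (SE 0.73, interval −1.62 to 1.65). ATM, the kinase activated by double-strand breaks, had 8.69, 7.05 and 8.77 in RB-deficient arrays and 8.07, 8.21 and 8.05 in RB-proficient arrays. RB-deficient 1 and 3 lay above all 3 RB-proficient arrays and RB-deficient 2 below them, so the difference was 0.06 (SE 0.58, interval −1.24 to 1.36). Of the subunits of the MRN complex, NBN averaged 7.60 ± 0.94 in RB-deficient and 8.37 ± 0.17 in RB-proficient arrays (SD, n = 3 each), a difference of −0.77 (SE 0.58) that was −0.24 without RB-deficient 2. RAD50 had 9.44, 9.70 and 8.97 in RB-deficient arrays and 9.03, 8.77 and 9.10 in RB-proficient arrays, and differed by 0.40 (SE 0.48), or 0.24 without RB-deficient 2. The 7 genes of this role had no common direction, with 4 lower and 3 higher.

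Homologous recombination genes were split, with 7 of 12 lower and 5 higher and a median difference of −0.17. XRCC2, which acts in strand exchange during recombination, was the one gene of the 31 that was higher with no overlap. It had 6.92, 4.07 and 3.78 in RB-deficient arrays and 1.95, 2.70 and 3.01 in RB-proficient arrays. All 3 RB-deficient values were above all 3 RB-proficient ones, and RB-deficient 1 was far above the other 2. The difference was 2.37 (SE 0.82, interval 0.54 to 4.21), which is 5.18-fold higher, with an adjusted p of 0.275. It was 1.38 without RB-deficient 1 and 1.00 with a floor of 16, which is above all its RB-proficient values. XRCC3, which acts in the same pathway, had 6.17, 6.55 and 5.49 in RB-deficient arrays and 5.53, 5.57 and 5.19 in RB-proficient arrays, and differed by 0.64 (SE 0.50, adjusted p 0.589), or 0.40 without RB-deficient 2. Its RB-deficient 3 value lay among the RB-proficient ones.

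BRCA1 had 0, 1.87 and 3.91 in RB-deficient arrays and 4.0, 4.06 and 2.89 in RB-proficient arrays. RB-deficient 1 and 2 lay below every RB-proficient array and RB-deficient 3 lay among them. The BRCA1 difference of −1.72 (SE 0.90, interval −3.73 to 0.29, adjusted p 0.427) depended on those arrays and on the floor: it was 0.26 without RB-deficient 1 and 2, −0.76 without RB-deficient 1 alone, and −0.02 with a floor of 16. BARD1, the partner of BRCA1 in a ubiquitin ligase, averaged 5.27 ± 0.94 in RB-deficient and 5.11 ± 0.15 in RB-proficient arrays (SD, n = 3 each), a difference of 0.17 (SE 0.58). PALB2, which bridges BRCA1 and BRCA2, averaged 5.68 ± 0.16 in RB-deficient and 6.0 ± 1.03 in RB-proficient arrays, a difference of −0.32 (SE 0.60). BRIP1, a helicase that binds BRCA1, had 3.62, 4.47 and 4.47 in RB-deficient arrays and 4.16, 1.46 and 3.93 in RB-proficient arrays. Its difference of 1.00 (SE 0.74) was 0.14 without RB-proficient 2, the one low array.

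BLM, the RecQ helicase that takes apart recombination intermediates, had 1.38, 1.75 and 3.80 in RB-deficient arrays and 3.36, 4.25 and 4.86 in RB-proficient arrays. RB-deficient 3 lay above RB-proficient 1, so the groups overlapped. The BLM difference was −1.85 (SE 0.72, interval −3.47 to −0.23, adjusted p 0.308), −0.37 with a floor of 16 and −0.36 without RB-deficient 1 and 2. RAD54L, a motor protein of recombination, had 4.74, 3.24 and 2.97 in RB-deficient arrays and 2.74, 3.35 and 3.35 in RB-proficient arrays, and differed by 0.50 (SE 0.59). One RB-deficient array carried that difference, which was −0.04 without it. RAD52, which anneals single strands, differed by −0.65 (SE 0.61; from −1.25 without RB-deficient 3 to −0.32 without RB-deficient 1), RAD51AP1, which promotes strand exchange, by −0.23 (SE 0.68), and EME1, the partner of the nuclease MUS81, by −0.23 (SE 0.58). EXO1, a nuclease that resects breaks, had 6.93, 3.51 and 3.54 in RB-deficient arrays and 4.30, 5.04 and 5.01 in RB-proficient arrays. The group means of EXO1 were close, 4.66 ± 1.97 in RB-deficient and 4.78 ± 0.42 in RB-proficient arrays (SD, n = 3 each), because RB-deficient 1 lay above and RB-deficient 2 and 3 below every RB-proficient value.

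**Figure D2:**
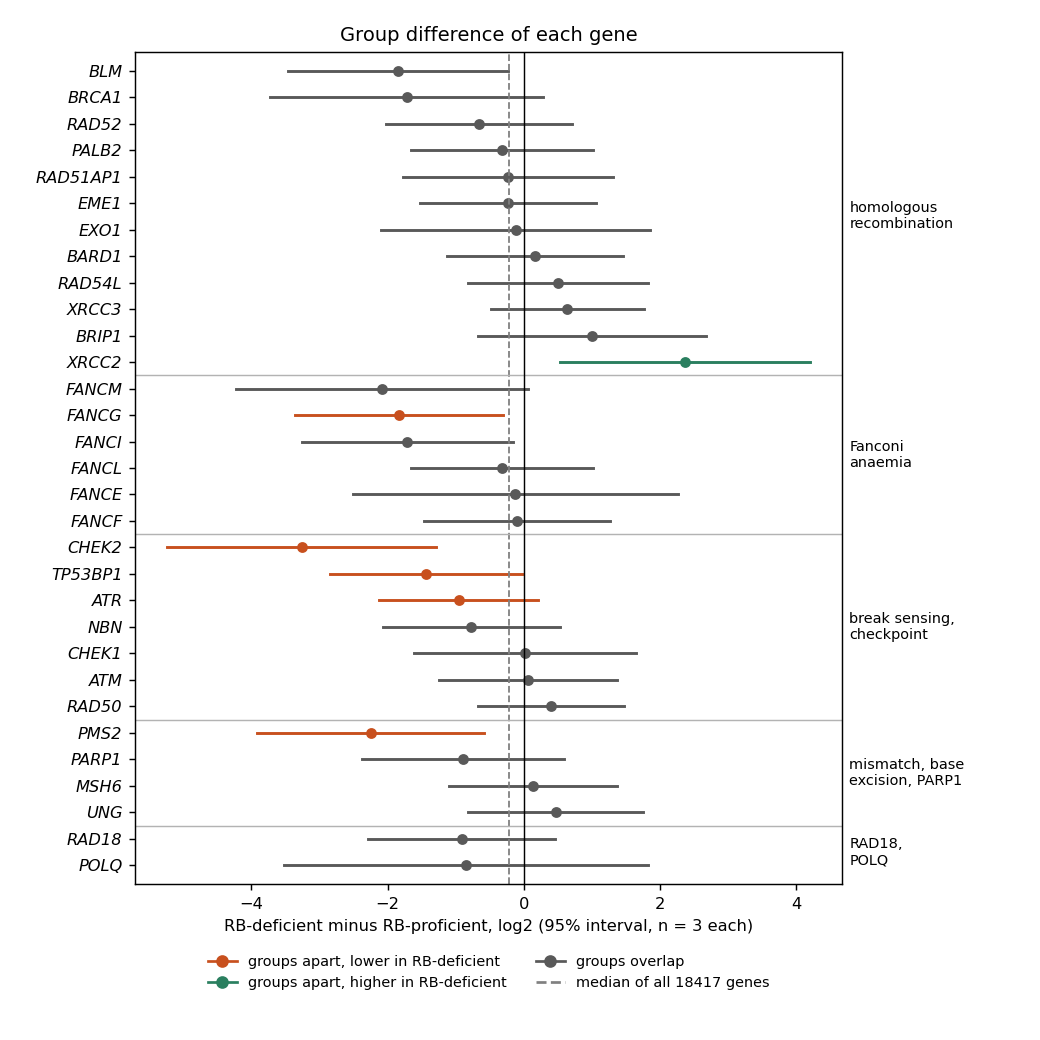
Difference of each of the 31 genes, RB-deficient minus RB-proficient on the log2 scale, with its 95% interval from limma, n = 3 per group. Colour marks the 5 genes lower and the 1 gene higher with no overlap between groups, and the dashed line is the median of all genes at −0.21. The intervals of 24 genes cross 0.

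All 6 measured genes of the Fanconi anaemia pathway, which repairs crosslinks between DNA strands, were lower in RB-deficient cells, with differences from −2.08 to −0.10 and a median of −1.01. Over all genes 58.6% were lower. The list medians were −0.82, −2.53 and −0.09 in RB-deficient 1, 2 and 3 relative to the RB-proficient mean, so RB-deficient 3 was close to it. FANCG, of the core complex, had 4.10, 1.76 and 3.66 in RB-deficient arrays and 4.41, 5.15 and 5.44 in RB-proficient arrays. The groups of FANCG were apart, with RB-deficient 2 the lowest, and the difference was −1.83 (SE 0.68, interval −3.35 to −0.31, adjusted p 0.289). It was −1.12 without RB-deficient 2 and −0.88 with an offset of 16. FANCI, the partner of FANCD2 in the complex that the core ubiquitinates, had 4.02, 2.90 and 4.67 in RB-deficient arrays and 4.34, 6.26 and 6.11 in RB-proficient arrays. RB-deficient 3 lay above RB-proficient 1, and the difference was −1.71 (SE 0.69, interval −3.26 to −0.16, adjusted p 0.324), −1.06 with an offset of 16 and −0.90 without RB-deficient 1 and 2.

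FANCM, the translocase that brings the core complex to DNA, averaged 1.97 ± 2.15 in RB-deficient and 4.05 ± 0.67 in RB-proficient arrays (SD, n = 3 each). Its difference of −2.08 (SE 0.96, adjusted p 0.374) was the largest of the pathway, and it was −1.10 without RB-deficient 1, 0.21 without RB-deficient 1 and 2 and −0.21 with a floor of 16. FANCL, the ubiquitin ligase of the core complex, differed by −0.31 (SE 0.60), and by 0.85 without RB-deficient 1 and 2. FANCE, which contacts FANCD2, differed by −0.13 (SE 1.06) and FANCF, an adaptor of the core complex, by −0.10 (SE 0.61). The signs of FANCE and FANCF turned under quantile normalization, to 0.03 and 0.01. The 6 of 6 lower genes are therefore 4 of 6 under that scaling and 4 of 6 after centring each array.

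PMS2, an endonuclease subunit of mismatch repair, had 3.05, 2.84 and 5.35 in RB-deficient arrays and 6.78, 5.36 and 5.83 in RB-proficient arrays. RB-deficient 3 and RB-proficient 2 nearly touched, and the other 2 RB-deficient values lay far lower. The difference was −2.25 (SE 0.74, interval −3.91 to −0.58), which is 4.75-fold lower, with an adjusted p of 0.265. It was −0.64 without RB-deficient 1 and 2, and −1.35 with an offset of 16. PMS2 has near-identical pseudogenes, so its signal may include theirs, which was not tested. MSH6, which recognises mismatches, averaged 8.09 ± 0.55 in RB-deficient and 7.95 ± 0.63 in RB-proficient arrays (SD, n = 3 each), a difference of 0.14 (SE 0.55). UNG, the glycosylase that removes uracil from DNA, differed by 0.47 (SE 0.57), with 7.45 ± 0.64 in RB-deficient and 6.97 ± 0.68 in RB-proficient arrays. Without RB-deficient 1 it differed by 0.15.

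PARP1, the polymerase that marks strand breaks with poly(ADP-ribose), had 7.03, 4.95 and 5.87 in RB-deficient arrays and 6.25, 6.56 and 7.69 in RB-proficient arrays. RB-deficient 2 and 3 lay below every RB-proficient array and RB-deficient 1 lay among them. The PARP1 difference was −0.89 (SE 0.66, interval −2.37 to 0.60, adjusted p 0.575), and it ran from −1.43 without RB-deficient 1 to −0.39 without RB-deficient 2 and −0.46 without RB-proficient 3. RAD18, the ligase that marks PCNA at stalled forks, averaged 4.91 ± 0.76 in RB-deficient and 5.82 ± 0.80 in RB-proficient arrays (SD, n = 3 each), and differed by −0.91 (SE 0.61). The RAD18 difference was −0.49 without RB-deficient 1 and −1.37 without RB-proficient 2. POLQ, the polymerase of microhomology-mediated end joining, had 5.50, 0 and 4.10 in RB-deficient arrays and 3.43, 3.90 and 4.82 in RB-proficient arrays. One RB-deficient array was the highest of the 6 for POLQ and another was at the floor, and the difference of −0.85 had the largest SE of the 31, at 1.19. The array values of TP53BP1, EXO1 and POLQ were chosen for display after their values were seen.

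The RB-deficient arrays differed from each other in these genes more than the RB-proficient ones did. For the 31 genes the median SD was 1.02 in RB-deficient and 0.63 in RB-proficient arrays, against 0.84 in RB-deficient and 0.40 in RB-proficient arrays over all genes. The SD was larger in RB-deficient arrays for 24 of the 31 (77.4%, against 81% of all genes). In RB-deficient 1, 12 of the 31 lay above all 3 RB-proficient arrays (38.7%, against 35.2% of all genes) and 13 below them (41.9%, against 42.1%). In RB-deficient 2, 4 lay above (12.9%, against 30.4%) and 21 below (67.7%, against 48%). In RB-deficient 3, 6 lay above (19.4%, against 25.5%) and 7 below (22.6%, against 37.6%). RB-deficient 2 thus held more low and fewer high genes of this list than its share over the array, RB-deficient 1 was near its share in both directions, and RB-deficient 3 held fewer of either.

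**Figure D3:**
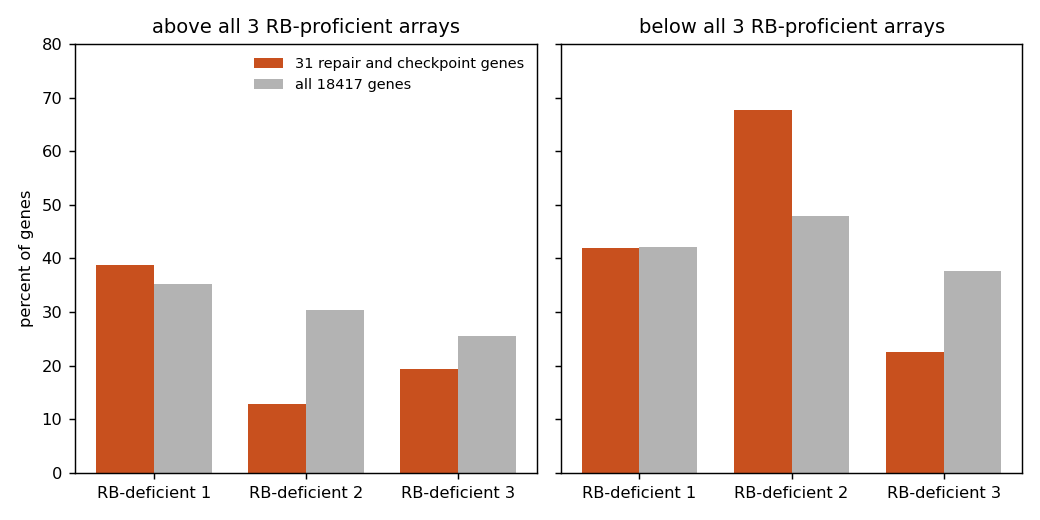
Percent of genes that lie above (left) or below (right) all 3 RB-proficient arrays in each RB-deficient array, for the 31 repair and checkpoint genes and for all 18417 genes. In RB-deficient 2, 67.7% of the 31 lie below and 12.9% above, against 48% and 30.4% of all genes.

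RB-deficient 1 and 2 lay on opposite sides of the RB-proficient arrays for some genes and on the same side for others. ATM, BARD1, EXO1, FANCE, POLQ and RAD51AP1 lay above all RB-proficient arrays in RB-deficient 1 and below them in RB-deficient 2, which is 6 of 31 (19.4%, against 11.8% of all genes), and 0 of 31 did the reverse (against 8.43%). POLQ, FANCE and EXO1 were farthest apart between these arrays. ATR, BLM, BRCA1, CHEK2, FANCG, FANCI, FANCL, FANCM, NBN, PMS2, RAD52 and TP53BP1 lay below in both, 12 of 31 (38.7%, against 26.3%). RAD50, XRCC2 and XRCC3 lay above in both, 3 of 31 (9.68%, against 15.5%). These shares have no test, since they compare single arrays.

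Proliferation genes varied over the same arrays. The median deviation from the RB-proficient mean was 0.28, −1.27 and −0.12 for the 31 genes in RB-deficient 1, 2 and 3, and 0.52, −1.44 and −0.22 for 19 proliferation genes such as MKI67, TOP2A and CCNB1. In RB-proficient 1, 2 and 3 it was −0.14, −0.03 and 0.26 for the 31, and −0.73, −0.14 and 0.65 for the proliferation genes. The medians of both lists were thus lowest in RB-deficient 2 and highest in RB-deficient 1 among the RB-deficient arrays, and highest in RB-proficient 3 among the RB-proficient ones. Single proliferation genes did not all follow their median. In RB-deficient 1 and 2 TOP2A deviated by 1.25 and −1.85, but MKI67 by −1.40 and 0.29 and AURKB by −0.65 and 1.31. The part of the cells' growth state in the repair genes was not tested. Over all genes the same medians were −0.14, −0.37 and −0.14 in RB-deficient arrays and −0.003, −0.08 and 0.10 in RB-proficient arrays. RB-deficient 2 was thus lowest and RB-proficient 3 highest over all genes too, by less.

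**Figure D4:**
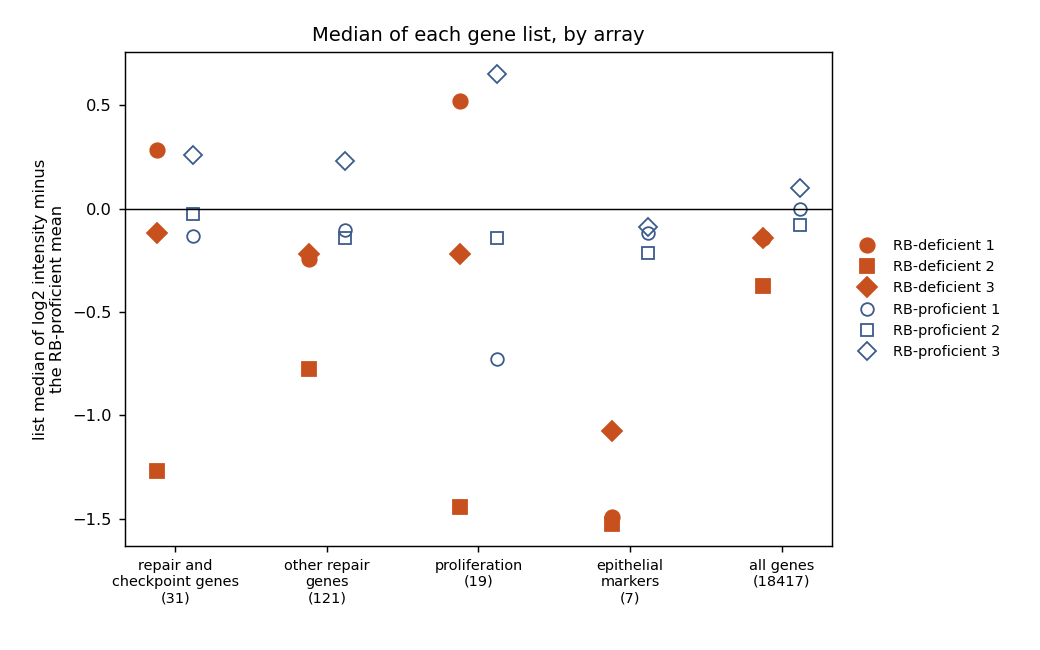
Median over each gene list of the log2 intensity minus the RB-proficient mean, in each RB-deficient array (filled) and each RB-proficient array (open). For the 31 repair and checkpoint genes and for the proliferation genes RB-deficient 1 lies above 0 and RB-deficient 2 below −1. The median of the 7 epithelial markers lies below −1 in all 3 RB-deficient arrays.

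Other repair and checkpoint genes were counted from 8 further lists. Of their 136 symbols, 121 were measured and 0 had an adjusted p under 0.05 in limma's test. At an unadjusted p under 0.05, 13 were lower (10.7%, against 10.8% of all genes) and 1 was higher (0.826%, against 2.85%). The median difference was −0.33, against −0.21 over all genes, with 85 lower (70.2%) and 36 higher. Over all genes 58.6% were lower, the share to set beside the counts of single lists below. The groups lay apart for 19 lower genes (15.7%, against 15.3%) and 6 higher ones (4.96%, against 7.12%).

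In non-homologous end joining, which rejoins broken ends without a template, 11 of 15 genes were lower and 4 higher, and the groups lay apart for 5 lower genes (33.3%, against 15.3% of all genes) and 3 higher genes (20.0%, against 7.12%). XRCC4, the scaffold of DNA ligase IV, had 4.29, 5.0 and 4.71 in RB-deficient arrays and 6.45, 6.92 and 5.85 in RB-proficient arrays. All RB-deficient values lay below all RB-proficient ones, and the difference was −1.74 (SE 0.51, adjusted p 0.231). SHLD1, of the shieldin complex that limits resection, differed by −2.23 (SE 0.67). DCLRE1C, the nuclease Artemis, had 5.22, 5.11 and 5.23 in RB-deficient arrays and 3.50, 3.68 and 4.02 in RB-proficient arrays, and was higher by 1.46 (SE 0.46, adjusted p 0.251). POLL, a gap-filling polymerase, was higher by 1.1 (SE 0.51). XRCC4 and DCLRE1C thus differed in opposite directions, each with its groups apart.

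In nucleotide excision repair 12 of 17 genes were lower, with a median of −0.27. DDB1, which recognises ultraviolet damage with DDB2, differed by −2.25 (SE 0.63, adjusted p 0.221), with 6.25, 5.25 and 7.17 in RB-deficient arrays and 8.21, 7.99 and 9.24 in RB-proficient arrays. XPC, the damage sensor of the genome-wide branch, differed by −1.54 (SE 0.51). In other base excision repair 14 of 20 were lower, with XRCC1, the scaffold of single-strand break repair, at −1.65 (SE 0.49, adjusted p 0.233) and the glycosylase OGG1 at −1.50 (SE 0.51). XRCC1 had 5.27, 5.07 and 5.09 in RB-deficient arrays and 6.25, 7.24 and 6.88 in RB-proficient arrays, so the RB-deficient arrays lay close together below the others. In other homologous recombination 14 of 23 were lower, with TOP3A, the topoisomerase that acts with BLM, at −2.11 (SE 0.64) and its partner RMI1 higher by 1.06 (SE 0.51).

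Of 11 other Fanconi anaemia genes 6 were lower and 5 higher, with a median of −0.21. WDR48, the cofactor of the deubiquitinase USP1, differed by −2.06 (SE 0.88) and CENPX, a cofactor of FANCM, by 0.75 (SE 0.49). All 3 measured genes of other mismatch repair were lower, with MLH3 at −2.65 (SE 0.85) and MSH3 at −1.05 (SE 0.58). The groups of both overlapped, and MLH3 was at the floor in RB-deficient 2. In other damage tolerance 11 of 12 genes were lower (91.7%, against 58.6% of all genes), with a median of −0.31. SMARCAL1, a fork-remodelling enzyme, differed by −1.98 (SE 0.58). It was the 1 gene of the 12 that was apart and lower (8.33%, against 15.3% of all genes). Of 20 other checkpoint genes 14 were lower, with the phosphatase CDC25C at −1.49 (SE 0.61) and HUS1, of the checkpoint clamp, at −1.91 (SE 0.91). RB-deficient 1 lay far below the other arrays for HUS1, as it did for WDR48, and the groups of HUS1 overlapped. Among the 19 proliferation genes MCM5, of the replicative helicase, differed by −2.25 and BUB1, a mitotic checkpoint kinase, by −1.89, while PCNA, the replication clamp, differed by 0.60. None of the genes named in these lists passed the test (adjusted p 0.221 or above).

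**Figure D5:**
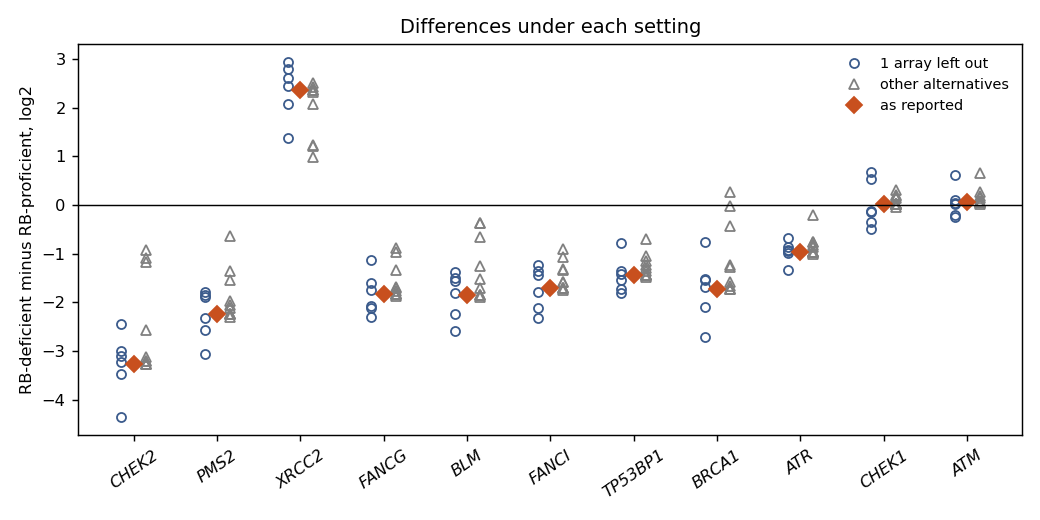
Difference of 11 of the genes under each setting, RB-deficient minus RB-proficient on the log2 scale, as reported (diamonds), with 1 array left out (circles) and under the other alternatives (triangles). CHEK2 runs from −4.36 to −0.92 and XRCC2 from 1.00 to 2.94 without a change of sign, and BRCA1 reaches 0.26.

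The signs of the genes with the smallest p-values were kept under the alternatives, and their sizes were not. CHEK2, PMS2, FANCG, BLM, FANCI and TP53BP1 were lower and XRCC2 was higher in each one that tested them (filters on dim genes left some out). For CHEK2, PMS2, FANCG, TP53BP1 and XRCC2, whose groups lay apart, leaving arrays out could not turn the sign. The genes were picked by p from these same data, so the kept signs add no support. The sizes ran from −4.36 to −0.92 for CHEK2, from −3.05 to −0.64 for PMS2 and from 1.00 to 2.94 for XRCC2. The adjusted p ran from 0.0970 to 0.709 for CHEK2 and from 0.136 to 0.709 for XRCC2. Over 18 alternatives 0 of the 31 genes passed.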

How the data were processed

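Total RNA was amplified by the WT-Ovation Pico kit and labelled with biotin, per the labels' protocols, with 1 sample on each array. The deposited values are linear intensities, 1 per probe set and array, which the authors made with Affymetrix Expression Console 1.1, per the submitters' processing notes. How the authors summarised, background-corrected and normalized them is not given in the sources used here. Detection calls were not used, so dim genes may lie at background. The number of arrays limits the precision.

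Arrays were multiplied to the same median, floored at 1 and put on the log2 scale. Of 33297 probe sets, 19460 had 1 gene symbol, and the brightest of a gene by its mean over all 6 arrays was kept, giving 18417 genes. The comparison of RB-deficient with RB-proficient arrays used limma 3.58.1 (lmFit and eBayes, two-sided, no covariates; R 4.3.3), with Benjamini-Hochberg adjustment over all genes and a threshold of 0.05. The fit was run on simulated data with an equal spread in both groups, and its mean differences were checked. That check does not cover the p-values and intervals at the unequal spread of these arrays. The 34 genes and the other lists were chosen with earlier results of these data known. Array values are given for the 5 genes with the smallest p in each direction and for BRCA1, ATM, ATR, CHEK1 and PARP1. Differences are given for at most 2 genes per direction of each other list, and further genes of some lists are named as examples. Array values of TP53BP1, EXO1, POLQ, XRCC4, DCLRE1C, DDB1 and XRCC1 were added after their values were seen, as were deviations of TOP2A, MKI67 and AURKB. The 18 alternatives cover scaling, floor, filters, probe sets, moderation, array weights, the replicate number and omitted arrays.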

Additional observations from a re-analysis of the deposited data

How the results depend on the processing

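The count of 0 repair and checkpoint genes past the threshold was the same in all 18 alternatives, and their median difference stayed below 0 in all but 1, with a range of −0.58 to 0.05 over the omission of single arrays. The count over all genes, 1 as reported, was 0 with quantile normalization, without the dimmest 25% of genes and without RB-deficient 1 and 2, 4 without the dimmest 50%, 58 with a floor of 16, 193 with an offset of 16, 61 with eBayes with trend and robust, and 0 to 4 with single arrays left out. The 5 lower genes with groups apart became 3 with quantile normalization (13.4% of all genes), with centring (12.4%) and with no scaling (16.1%). They were 4 of 21 without the dimmest 25% (17.1%) and 2 of 16 without the dimmest 50% (19.2%). Without RB-deficient 1 and 2 they were 7 of 31 (37.6%), and with single arrays left out 5 to 12 (17.9% to 26.3%). The 1 higher gene became 2 with quantile normalization (8.47% of all genes), centring (9.73%) or no scaling (7.20%), 0 with a floor of 16 (5.43%) or without the dimmest 25% (7.07%) or 50% (6.01%), 6 without RB-deficient 1 and 2 (25.5%), and 1 to 3 with single arrays left out (8.96% to 15.5%). The cause of these moves was not tested, except that fewer genes or arrays enter the filters and omissions.

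Of 533 values of single genes, 487 kept their sign and 46 turned, and 14 genes never turned. Part of the kept signs was fixed beforehand. The filters, the mean of probe sets, eBayes with trend and robust and the replicate block could not change a difference. Each of these genes had 1 probe set, and the others change only the SE or the genes tested. EME1, with no difference at a floor of 16, was counted as kept. Without RB-deficient 1 and 2 the differences were 0.21 for FANCM, 0.26 for BRCA1, 0.54 for RAD52, −0.18 for RAD54L, −0.16 for UNG, 0.0565 for POLQ, 0.85 for FANCL, 0.31 for EME1, −0.16 for MSH6 and 0.78 for FANCE. A floor of 16 gave 0.26 for POLQ, 0.19 for EXO1 and 0.13 for FANCE, and an offset of 16 gave 0.11 for EXO1 and 0.14 for FANCE. Quantile normalization gave 0.0097 for FANCF and 0.0307 for FANCE, centring gave 0.0325 for FANCF, 0.0148 for EXO1 and 0.0092 for FANCE, array weights gave 0.0816 for FANCE, and no scaling gave −0.0307 for CHEK1. With single arrays left out, RAD54L ran from −0.0409 to 0.84, POLQ from −2.0 to 0.75, PALB2 from −0.89 to 0.12, FANCL from −0.89 to 0.0547, EME1 from −0.50 to 0.30, RAD51AP1 from −0.81 to 0.40, BARD1 from −0.21 to 0.69, MSH6 from −0.18 to 0.48, FANCF from −0.69 to 0.22, EXO1 from −1.25 to 0.46, FANCE from −0.99 to 1.19, ATM from −0.24 to 0.62 and CHEK1 from −0.50 to 0.67.

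Deviations of arrays that share a number were not positively related in every pair (r of −0.12, 0.07 and −0.11 across genes), and with the replicate block 1 gene in all and 0 of the 31 passed, with a median of −0.31. A floor of 1 leaves dim genes such as CHEK2 and BRCA1 with differences that depend on it.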
